A study of Homo sapiens with 6 samples.

Results

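The 35 genes described here are T and natural killer (NK) cell lineage genes, chosen by name from known lineage markers, of 19974 protein-coding genes on chromosomes 1 to 22 and X. They were read in GM12878, a lymphoblastoid cell line made from B cells by immortalisation with Epstein-Barr virus, a lineage in which most of these genes are silent. Open chromatin was mapped by InTAC-seq, which adapts ATAC-seq to cells fixed and stained inside: the transposase Tn5 inserts sequencing adapters where DNA is open. There were 3 groups of 2 libraries. The H3K27ac-high and H3K27ac-low groups were stained for viability, fixed with paraformaldehyde, permeabilised, stained with an antibody to H3K27ac (acetylation of histone H3 lysine 27, found at active regulatory DNA) and sorted by the strength of that staining. Their crosslinks were reversed after transposition. The third group was a live, unsorted control whose DNA was purified straight after transposition, so fixation, staining, sorting and crosslink reversal all separate it from the sorted groups and cannot be told apart. All libraries shared the cell line, and each came from 50000 cells. The labels describe replicates as portions of the same cells, so their spread may be technical.

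Each lineage of blood cells opens its own set of enhancers and promoters and leaves those of its sister lineages closed. T cells recognise antigen through a receptor that signals by way of the CD3 chains, the kinases LCK and ZAP70 and the adaptor LAT, and their fate is set by transcription factors such as TCF7, BCL11B and GATA3. NK cells and cytotoxic T cells kill with perforin and granzymes held in granules. Some of these genes are also used, at lower levels, by B cells: CD5 marks a subset of B cells, and PDCD1 and LAG3 can appear on activated B cells.

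A gene's window was its annotated body on hg38 with 10 kb added on either side. The authors' deposited lists give 1 base, the summit, for each peak of open chromatin. Summits of all libraries closer than 250 bp were joined into 1 region, called a site below. The libraries held from 25627 (H3K27ac high replicate 1) to 72284 (live control replicate 2) regions, so only the 25627 with the highest scores in each library entered the counts, which is all of the shortest list. A site within 1 kb of either end of the gene was an end site, and any other site in the window was counted apart. Ranks run from 1, the strongest region of a library, and describe that library alone. Where 6 values follow each other they are in the order live control 1 and 2, H3K27ac high 1 and 2, H3K27ac low 1 and 2.

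The cells carried open chromatin at genes of their own lineage. Of 12 B cell markers, 7 had an end site in all 6 libraries (MS4A1, CD79B, BLNK, BANK1, EBF1, CD74 and FCER2), and only CR2 had no site among the best regions. Of 10 myeloid and 10 erythroid and megakaryocyte markers, none had an end site among the best regions of any library. Of all genes, 54.4% had one in at least 1 library. These markers were not all without sites away from their ends. Another site was present in all 6 libraries for 2 of the 10 myeloid markers (CD14 and LYZ). The same held for 3 of the 10 erythroid and megakaryocyte markers (KLF1, ALAS2 and GATA1), against 32.6% of all genes. Among the T and NK cell genes, 3 of 35 (8.57%) had an end site in all 6 libraries, against 40.2% of all protein-coding genes: CD3E, CD8A and EOMES. In at least 1 library an end site was found for 10 members (28.6%), against 54.4% of all genes. The share lay below that of all genes in each library alone as well: 5, 6, 5, 6, 5 and 7 members had one, or 1 in 5 at most, and 44.6% to 49.7% of all genes.

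Away from a gene's own ends the members' share was near that of genes at large. Another site was present in all 6 libraries for 11 of 35 members (31.4%), against 32.6% of all genes: CD3G, PDCD1, LAG3, TIGIT, LCK, TCF7, LEF1, GATA3, EOMES, GNLY and NKG7. Such a site can lie at the end of a neighbouring gene or, as for GATA3, at a listed start inside the annotated body. With sites at the ends of genes outside the list left out, 8 members had one. The matching share of all genes was not computed. With end sites included, the windows of the 35 members held 30, 30, 26, 32, 32 and 30 sites in the 6 libraries. That is 12.5 to 15.4 sites per Mb, against 12.7 to 13.3 per Mb in the windows of all genes. A site of either kind was shared by all 6 libraries in 13 members (37.1%), against 58.7% of all genes. No site among the best regions of any library was found for 9 members (25.7%), against 24.6%: CD4, CD7, ICOS, LAT, GZMA, GZMB, GZMK, KLRB1 and NCAM1. The median member had an end site in 0 of 6 libraries and the median gene in 2, and for a site of either kind the medians were 4 and 6. Members were shorter, with a median annotated length of 16261 bp against 24170.5 bp, and the part of length in these counts was not tested.

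**Figure D1:**
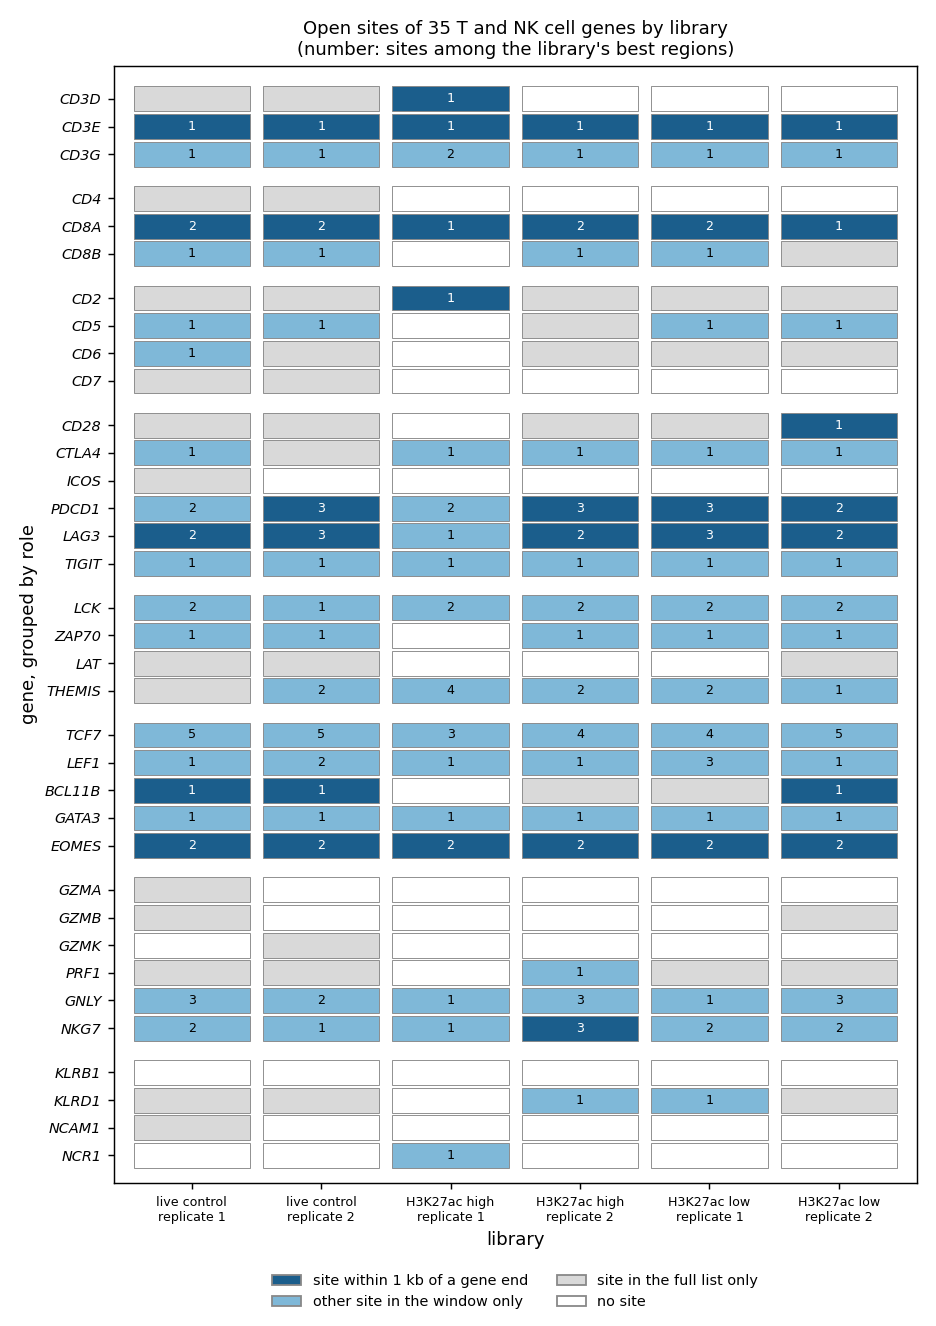
Open sites of the 35 T and NK cell genes (rows, grouped by role) in the 6 libraries (columns). Dark cells have a site within 1 kb of a gene end, light blue cells only another site, grey cells a site in the full list only, and the number counts sites among the library's 25627 best regions. CD3E, CD8A and EOMES are dark in all 6 columns, and 9 genes carry no number in any.

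**Figure D2:**
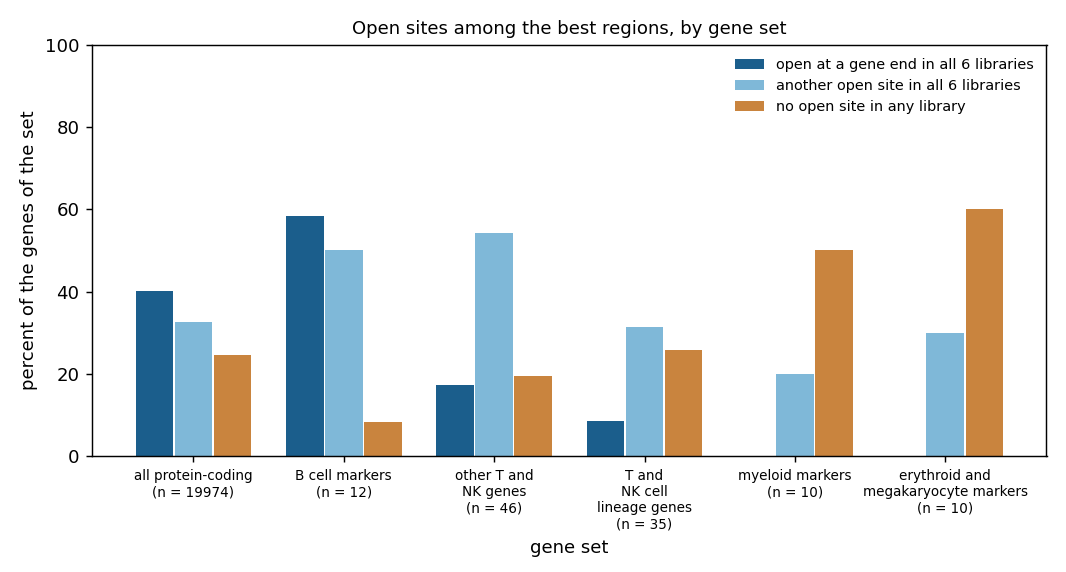
Percent of the genes in each set (vertical axis) with an end site in all 6 libraries, with another site in all 6 libraries, or with no site in any library, among the best regions; the sets hold 19974, 12, 46, 35, 10 and 10 genes. The bar for end sites stands at 58.3% for B cell markers, 40.2% for all genes, 8.57% for the T and NK cell lineage genes and 0 for the myeloid and erythroid sets.

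Promoter sequence was available for 39 listed transcription starts of 24 members, from RefSeq on GRCh38.p14. Of these starts, 2 (5.13%) had a site within 1 kb in all 6 libraries, those of EOMES and GATA3, against 39.8% of 22132 listed starts of protein-coding genes. The 250 bases before both starts follow, in the direction of transcription, because they are the promoters of another lineage that every library listed as open. EOMES lies at chr3:27722324-27722573 on the minus strand and GATA3 at chr10:8053391-8053640 on the plus strand, where the antisense gene GATA3-AS1 overlaps it. Capitals mark matches, on either strand, to any of 11 motifs: ETS CCGGAAG, RUNX TGTGGT, TCF/LEF CTTTGAT, the GATA family motif AGATAA, octamer ATTTGCAT, NF-Y CCAAT, SP GGGCGG, AP-1 TGANTCA, CRE TGACGTCA, and the IRF and NF-kB motifs. A 12th, the E-box CANNTG, is left in lower case, since 58.1% of all starts hold it. Capital stretches do not overlap each other.
EOMES: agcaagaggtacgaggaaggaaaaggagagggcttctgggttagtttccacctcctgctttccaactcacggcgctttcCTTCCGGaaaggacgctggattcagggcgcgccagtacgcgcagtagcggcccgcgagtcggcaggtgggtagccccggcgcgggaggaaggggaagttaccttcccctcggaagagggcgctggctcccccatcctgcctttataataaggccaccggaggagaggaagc
GATA3: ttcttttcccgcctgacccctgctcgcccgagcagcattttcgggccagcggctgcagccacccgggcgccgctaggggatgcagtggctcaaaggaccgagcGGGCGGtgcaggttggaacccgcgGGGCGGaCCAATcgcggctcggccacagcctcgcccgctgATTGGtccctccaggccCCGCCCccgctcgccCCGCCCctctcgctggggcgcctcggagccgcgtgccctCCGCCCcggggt
The EOMES stretch holds 1 match, to the ETS motif, which occurs before 10.7% of all listed starts. The GATA3 stretch holds 5 matches to the SP motif (53.7% of all starts have at least 1) and 2 to the NF-Y motif (32.7%). CpG dinucleotides number 19 before EOMES and 30 before GATA3, against a median of 22 before all starts open in all 6 libraries and 6.0 before those open in none.

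The BCL11B start (chr14:99272198-99272447, minus strand) and the PDCD1 start (chr2:241858895-241859144, minus strand, overlapped by the non-coding LOC124908032) had a site in some libraries only, 3 and 4 of 6. They are printed as the cases between open and closed, and were chosen after their values were seen.
BCL11B: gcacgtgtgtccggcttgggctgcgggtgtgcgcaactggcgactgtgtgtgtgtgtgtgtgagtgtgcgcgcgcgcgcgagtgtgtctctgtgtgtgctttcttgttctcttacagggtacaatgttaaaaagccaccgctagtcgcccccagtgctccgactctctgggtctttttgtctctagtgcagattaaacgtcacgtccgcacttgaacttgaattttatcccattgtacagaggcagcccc
PDCD1: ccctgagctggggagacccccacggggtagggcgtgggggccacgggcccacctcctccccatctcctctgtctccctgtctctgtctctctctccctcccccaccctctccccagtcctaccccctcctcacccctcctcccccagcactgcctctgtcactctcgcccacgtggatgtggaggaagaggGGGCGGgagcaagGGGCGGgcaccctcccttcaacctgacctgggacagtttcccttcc
BCL11B has 17 CpG dinucleotides and no match to the 11 motifs. PDCD1 has 7 and 2 SP matches. The last 3 starts had no site among the best regions: ICOS (chr2:203936513-203936762, plus strand), GZMA (chr5:55102396-55102645, plus strand) and GZMB (chr14:24634191-24634440, minus strand).
ICOS: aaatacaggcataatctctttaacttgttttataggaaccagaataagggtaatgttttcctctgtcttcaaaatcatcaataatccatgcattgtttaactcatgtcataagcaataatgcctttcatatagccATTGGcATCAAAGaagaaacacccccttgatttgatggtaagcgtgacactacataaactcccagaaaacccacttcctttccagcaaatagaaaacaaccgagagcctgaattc
GZMA: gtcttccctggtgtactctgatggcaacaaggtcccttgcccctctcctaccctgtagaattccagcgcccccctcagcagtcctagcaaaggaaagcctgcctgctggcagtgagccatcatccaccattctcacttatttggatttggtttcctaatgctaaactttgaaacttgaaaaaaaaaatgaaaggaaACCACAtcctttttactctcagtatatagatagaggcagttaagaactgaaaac
GZMB: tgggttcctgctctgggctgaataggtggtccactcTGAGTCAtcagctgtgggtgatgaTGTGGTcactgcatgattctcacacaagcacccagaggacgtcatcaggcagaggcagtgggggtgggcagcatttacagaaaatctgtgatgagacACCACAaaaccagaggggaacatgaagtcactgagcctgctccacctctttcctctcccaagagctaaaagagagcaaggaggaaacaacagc
ICOS is overlapped by LOC101927840 and GZMB by GZMH-AS1. These 3 are CpG-poor, with 2, 1 and 1 CpG dinucleotides. LAT, also without a best region, was passed over for GZMB because its start lies by another gene's end. The listed LAT starts hold 6 and 11, so the low numbers printed here depend in part on that choice. ICOS holds 1 TCF/LEF and 1 NF-Y match, GZMA 1 RUNX match, and GZMB 2 RUNX matches and 1 AP-1 match. A match is a run of letters and not evidence that a factor binds there.

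Over all 39 member starts the median was 6.0 CpG dinucleotides in 250 bases, against 16.0 over all 22132 listed starts. The 29 member starts with no site among the best regions had a median of 5.0 and ranged from 0 to 26. The 8 open in 1 to 5 libraries had a median of 11. High CpG number did not always go with a site: a GATA3 start with 26 (listed at 8054688) had none of the best regions within 1 kb, the nearest being 1131 bp away, and 1 summit 7 bp away in the full list of live replicate 2 (rank 56308). The TCF7 start with 22 had one within 1 kb in 1 library, 975 bp away. That region was among the best of all 6 libraries, but its median summit lay 1032 bp from the start. The RUNX motif TGTGGT, the core letters bound by a factor family active in T cells and B cells alike, was found before 12 of 39 member starts (30.8%) and before 9.36% of all starts. The SP motif stood before 13 member starts (33.3%) and before 53.7% of all. The NF-Y motif stood before 6 (15.4%), against 32.7%. Among all starts open in no library, the state of 29 of the 39 member starts, the shares were 11.3% for RUNX, 35.5% for SP and 29.8% for NF-Y. Among all starts open in all 6 libraries they were 7.28%, 71.4% and 38.4%. No test was made of these shares, since several starts share a gene.

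**Figure D3:**
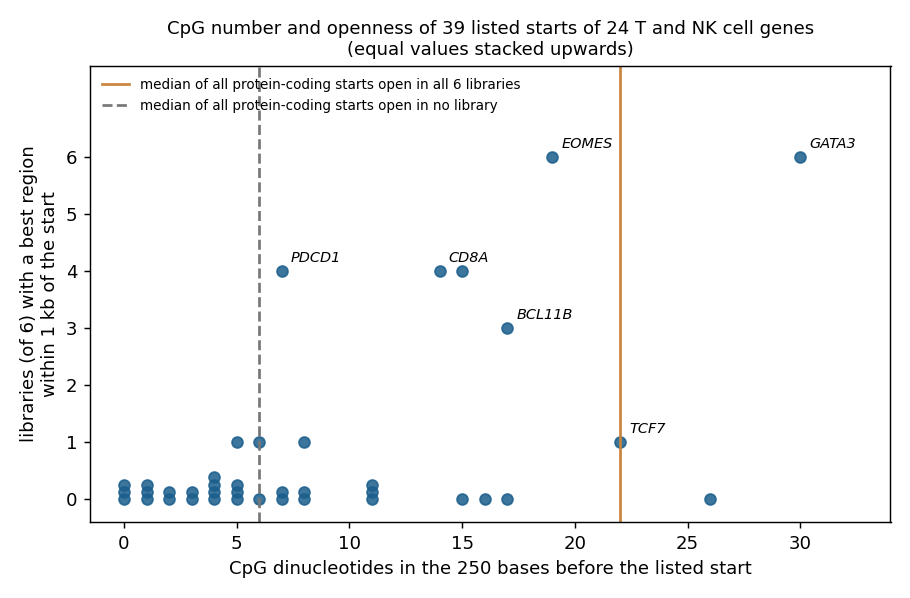
CpG dinucleotides in the 250 bases before each of 39 listed starts of 24 members (horizontal axis) against the number of libraries, of 6, with a best region within 1 kb (vertical axis; equal values are stacked). Both vertical lines are medians over all protein-coding starts, 22 for those open in all 6 libraries and 6.0 for those open in none; most points lie at 0 libraries and to the left of the solid line.

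The CD3 chains carry the activating signal of the T cell receptor. CD3E had an end site in all 6 libraries, at chr11:118316765-118316833, 628 bp beyond its upper end. CD3E, like LAG3, has no listed start here, so whether its upper end is the start was not read. The site ranked 7975, 17282, 19410, 22159, 10231 and 12368. CD3D, its neighbour, had an end site in H3K27ac high replicate 1 alone (summit 118338699, 255 bp below its lower end, rank 20882), and the same region was in the full lists of both live libraries at ranks 35317 and 39003. CD3D is read on the minus strand, so this is the end away from its listed start. For CD3G a site was present in all 6 libraries at chr11:118359509-118359598, ranked 13052, 11177, 24328, 7351, 6840 and 9244, but it lies 67 bp from the end of UBE4A, a ubiquitin ligase gene expressed in many tissues. No site lay within 1 kb of the listed start of CD3D in any full list.

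Of the coreceptors, which bind MHC molecules beside the T cell receptor, CD8A had an end site in all 6 libraries and CD4 had none among the best regions. The CD8A site at chr2:86784092-86784203 lies 478 bp below the lower end, the far end of a gene on the minus strand, and ranked 14221, 14064, 10312, 12384, 14004 and 12385. A further CD8A site at chr2:86808483-86808549, 102 bp from its listed start, was among the best regions of 4 libraries at ranks 14577 and 20605 (live), 23115 (high replicate 2) and 16445 (low replicate 1). It was absent from high replicate 1 and ranked 36601 in low replicate 2. The same site falls into the flank of CD8B, the partner chain, and is the only site that CD8B had. In the full lists, CD4 had sites in the live libraries alone, 1 and 3, the strongest at rank 40530.

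The surface receptors CD2, CD5, CD6 and CD7 had no site that all 6 libraries shared among their best regions. Of all genes 58.7% had a site in all 6. CD2, an adhesion receptor that binds CD58, had an end site at 116769834, at rank 16967 in high replicate 1. It lies 605 bp beyond the upper end, away from the gene's listed start. In the full lists it was present in all 6 libraries, at ranks from 27654 to 38965 in the other 5. CD5, an inhibitor of antigen receptor signalling, had 1 site in each live and each low library and none in the high libraries. The region lies at chr11:61129912-61129997, 2084 bp above CD5 and 321 bp from the end of VPS37C, a gene of endosomal sorting, and ranked 22976, 10878, not listed, 27851, 22863 and 17852. Thus high replicate 1 lacked it, and high replicate 2 had it just below the 25627 regions compared. CD6, a relative of CD5, had a site in live replicate 1 alone (rank 16806), in the gene body. CD7 had none, and its full-list sites, in the live libraries only, lie by the end of SECTM1.

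Of the 6 costimulatory and inhibitory receptors, 3 had a site in all 6 libraries (PDCD1, LAG3 and TIGIT), against 58.7% of all genes. PDCD1 (PD-1) had 2, 3, 2, 3, 3 and 2 sites. Its flank site at chr2:241844252-241844408, 5575 bp below the gene, was in all 6 libraries at ranks 14391, 21392, 20669, 14690, 11646 and 18479. A region at chr2:241858900-241858920, 10 bp from its listed start, was among the best of high replicate 2 (18978), low replicate 1 (14487) and low replicate 2 (20262). It was at rank 27474 in live replicate 2 and not listed in the other two. A neighbouring region at chr2:241859844-241859944 was among the best of 5 libraries, at ranks from 20868 to 25504, and at 37543 in low replicate 2. No PDCD1 site ranked better than 11646 in any library.

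LAG3, an inhibitory receptor for MHC class II, had the best-ranked site of this class in 5 of 6 libraries, all but high replicate 1. It lies at chr12:6764359-6764442, 8115 bp from LAG3 and 1958 bp from the end of PTMS, the parathymosin gene, and ranked 2996, 2750, 9947, 4960, 8385 and 5247. The end site of LAG3, chr12:6779073-6779134, 655 bp beyond its upper end, ranked 15343, 7105, 13837, 20160 and 23919 in 5 libraries and was not listed in high replicate 1. TIGIT, an inhibitory receptor for CD155, had 1 site in every library at chr3:114291123-114291540. It lies 2699 bp before the gene's listed start, and ranked 8142, 8325, 6661, 6241, 12594 and 11102. Its summits spread over 417 bp, against a median of 85 bp for the sites shared by all libraries.

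CTLA4, which competes with CD28 for its ligands, had a site inside the gene at chr2:203871638-203871726, ranked 10296, 26635, 24518, 16088, 21847 and 22888. The second of these, live replicate 2, falls just below the regions compared. CD28, the main costimulatory receptor, had a start site at 203706582 at rank 22849 in low replicate 2, and the full lists of all libraries except high replicate 1 held it at ranks down to 33474. ICOS, an inducible relative of CD28, had no site among the best regions and 1 in the full lists, in live replicate 1 at rank 52338. The neighbours CD28, CTLA4 and ICOS lie in 1 stretch of chromosome 2, yet none had an end site in all libraries.

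Of the 4 proximal signalling genes, 1 had a site in all 6 libraries, against 58.7% of all genes: LCK, the kinase that phosphorylates the CD3 chains. That site is at chr1:32291901-32291989, 104 bp from the end of HDAC1, a histone deacetylase gene, and 5814 bp above LCK, and it ranked 2234, 2013, 5228, 2986, 4013 and 2500. Nearer to LCK, a region at chr1:32250143-32250253, 1109 bp before its first listed start, ranked 21678, 32865, 13433, 20573, 15979 and 16493. It was among the best regions of 5 libraries and in the full list of live replicate 2. At the listed start itself the full lists held a single summit, in live replicate 2 at rank 68662. ZAP70, the kinase recruited to phosphorylated CD3, had 1 site, in the gene body at chr2:97745636-97745688, ranked 21651, 18542, 22235, 20890 and 24188 in 5 libraries and not listed in high replicate 1. LAT, the adaptor that ZAP70 phosphorylates, had none among the best regions. Its full-list sites, in both live libraries and low replicate 2, form 1 region, whose median summit is 90 bp from a listed LAT start and 377 bp from the end of SPNS1.

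THEMIS, a regulator of T cell receptor signalling in thymocytes, had 0, 2, 4, 2, 2 and 1 sites, all inside the gene. The first, chr6:127908118-127908246, ranked 28941, 16752, 6373, 12808, 15687 and 18482. The second, chr6:127737122-127737189, ranked 30040, 22395, 13741, 19376, 20876 and 41168. Both were in all 6 full lists. Their smallest rank numbers were in high replicate 1, the shortest list. A rank gives the place within its own library, so a smaller number there does not show that the site was more open. The high libraries held 4 and 2 sites and the low libraries 2 and 1, so the groups touched at 2.

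Of the 5 transcription factors, 4 had a site in all 6 libraries, against 58.7% of all genes, and BCL11B had one in 3. The bodies of LEF1 and BCL11B, 121385 and 102911 bp, are long beside the members' median of 16261 bp, and the part of length was not tested. TCF7, which directs early T cell development, had 5, 5, 3, 4, 4 and 5 sites, and 3 of them were in all 6 libraries. The region at chr5:134100454-134100605, 7647 bp from the gene and inside VDAC1, a mitochondrial channel gene, ranked 2207, 2489, 10753, 3577, 11095 and 6188. The region at chr5:134114555-134114638, 41 bp from the end of VDAC1 and 1032 bp from a listed TCF7 start, ranked 13531, 16197, 24753, 18224, 13221 and 14716. The region at chr5:134132583-134132629, inside TCF7 and at least 15623 bp from either end, ranked 17288, 9970, 5979, 9106, 11425 and 7559. A further one, chr5:134138498-134138588, also inside the gene, ranked between 5328 and 16732 in 5 libraries and was not listed in high replicate 1. TCF7 thus had regions in its body far from other genes' ends, and others that belong as much to VDAC1.

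LEF1, the close relative of TCF7, had 1 site in all 6 libraries, at chr4:108118665-108118758, inside the gene and 47588 bp from its listed start. It ranked 9792, 12218, 6841, 9149, 7491 and 11129. GATA3, which directs type 2 helper T cells, had 1 site in all 6 libraries, at chr10:8053521-8053557, within the printed stretch and 96 bp from its listed start at 8053641. Its 6 summits lay within 36 bp and ranked 13254, 12514, 17968, 7528, 9931 and 15155. The annotated body of GATA3 begins 8212 bp before this site, so the site counted as one away from the gene's ends although it sits at a promoter. With listed starts counted as gene ends as well, a setting added once the values had been seen, 4 members were open at an end in all 6 libraries, with GATA3 added.

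EOMES, which directs cytotoxic and NK cell programmes, was the only member open at its listed start and in its flank in all 6 libraries. The start was covered by 2 regions, and which of them a library held followed the replicate number. The summits of the replicate 1 libraries lay at 27722278 (live), 27722332 (high) and 27722302 (low), at ranks 9459, 9082 and 9971. Those of the replicate 2 libraries lay at 27721886, 27721833 and 27721886, at ranks 9126, 11248 and 10425; their median summit is 437 bp from the listed start, on the transcribed side. No library listed both. The flank site, chr3:27712287-27712340, lies 3632 bp below the gene by the non-coding LINC02084 and ranked 8189, 14741, 21408, 10556, 13420 and 9908. BCL11B, which commits progenitors to the T lineage, had a start site at chr14:99272269-99272272, 75 bp before the listed start. It ranked 18575, 14435, 28167, 32669 and 21802 and was not listed in high replicate 1, so it was among the best regions of both live libraries and low replicate 2.

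**Figure D4:**
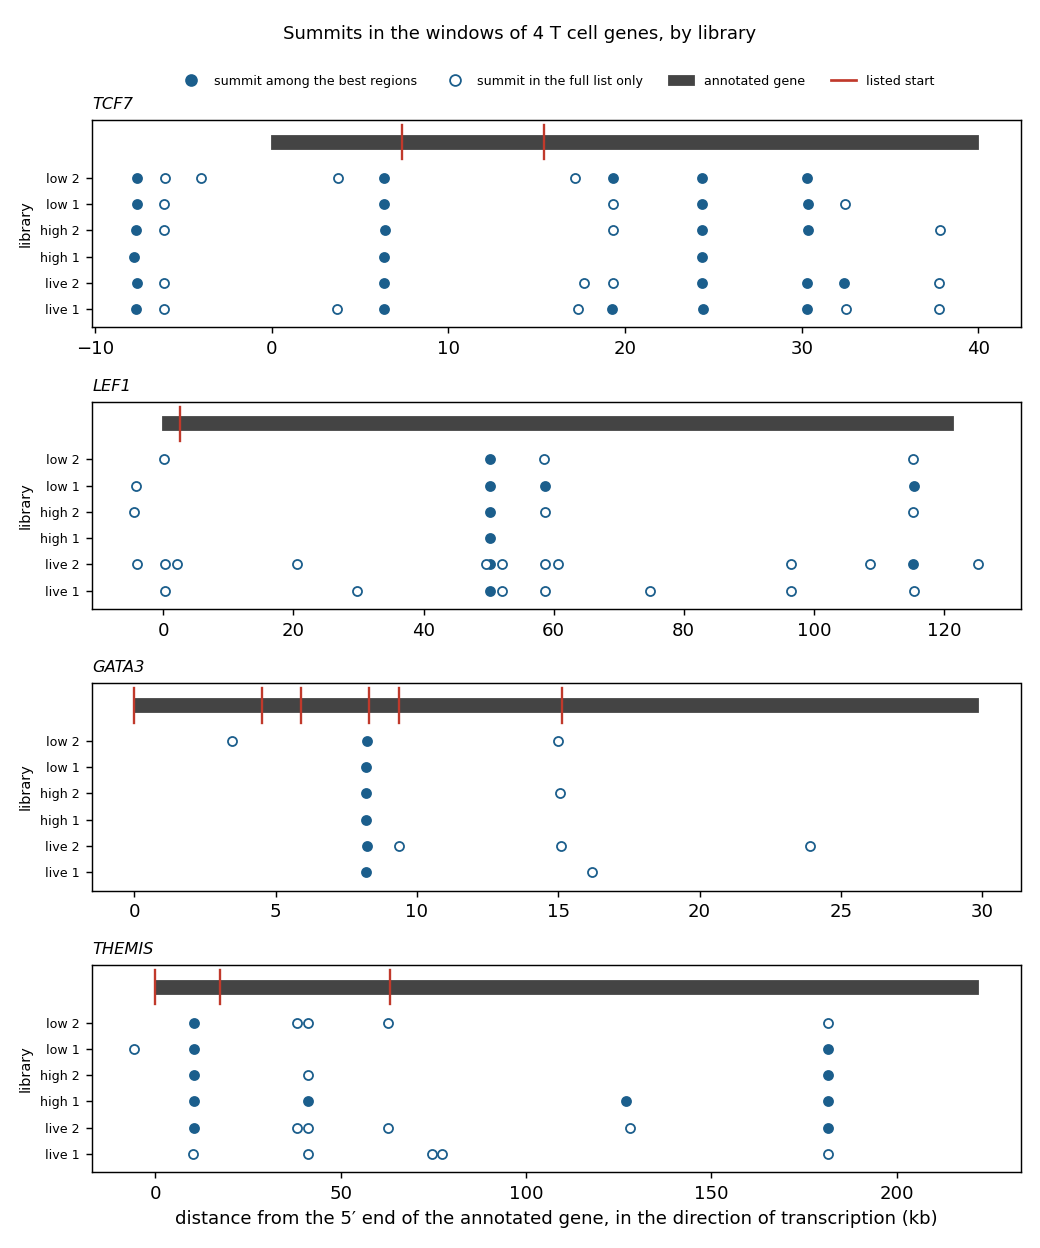
Summits of each library in the windows of TCF7, LEF1, GATA3 and THEMIS, by distance in kb from the gene's 5′ end in the direction of transcription (horizontal axis). Filled points are among the library's best regions, open points in its full list only, grey bars are the annotated genes and red lines the listed starts. The filled columns shared by all 6 libraries number 3 for TCF7, 1 for LEF1 and 1 for GATA3; THEMIS has 1 in 5 libraries and 1 in 4.

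Of the 6 genes of cytotoxic granules, 3 had no site among the best regions of any library, against 24.6% of all genes. A site in all 6 libraries was found for 2 (GNLY and NKG7), against 58.7% of all genes. The sites lay by a neighbour or in a flank, apart from 1 region at the start of NKG7. The granzymes GZMA, GZMB and GZMK, serine proteases that enter the target cell, had none among the best regions. In the full lists GZMA had 1 summit 65 bp before its start in live replicate 1 (rank 67779). GZMB had 1 region 239 bp before its start in live replicate 1 (65440) and low replicate 2 (44363). PRF1, the pore-forming perforin, had 1 site 9905 bp below the gene in high replicate 2 (18625), which the full lists held in 5 libraries. GNLY, the membrane-lytic granulysin, had 3, 2, 1, 3, 1 and 3 sites, all in its flanks. The one shared by all libraries, chr2:85705073-85705158, 6283 bp above the gene, ranked 18567, 18497, 18286, 12167, 16838 and 22082. NKG7, a granule membrane protein, had 2, 1, 1, 3, 2 and 2 sites. The shared one, chr19:51367684-51367718, ranked 5639, 3058, 5394, 2539, 1247 and 1330, inside CLDND2, and is 3914 bp from NKG7. At NKG7's own start a region was among the best of high replicate 2 alone (24993), and in 5 full lists.

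None of the 4 NK cell receptors had a site in all 6 libraries, against 58.7% of all genes. KLRD1 (CD94), the partner chain of the NKG2 receptors, had 1 gene-body site in high replicate 2 (rank 12129) and another in low replicate 1 (25316). NCR1 (NKp46) had 1 site in high replicate 1 (25198), 482 bp from its listed start, and none in the other full lists. NCAM1 (CD56), the adhesion molecule used to define NK cells, had 1 summit across the full lists, in live replicate 1 at rank 62319, although its body spans 317017 bp. KLRB1 (CD161) was the only member with no summit in any full list.

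Counted once each, the best regions in the 35 windows made 49 sites. Of these, 15 (30.6%) were among the best regions of all 6 libraries, against 35.2% of all 41407 regions that any library held among its best, and 14 (28.6%) were in 1 library, against 25.4%. By place, 9 lay within 1 kb of a member's listed start, 5 at another end of the member, 7 within 1 kb of the end of another protein-coding gene, 16 in a gene body and 12 in a flank. Of the 9 at listed starts, 1 was shared by all 6 libraries, that of GATA3, since the EOMES start is split into 2 regions. Of the 7 at the ends of other genes, 4 were shared by all 6. In each library, 34.6% to 43.3% of the sites in the members' windows lay within 1 kb of the end of some protein-coding gene, the member or a neighbour, against 43.2% to 45.4% in all gene windows. Of 7 sites present in exactly 5 libraries, high replicate 1 lacked 3 (LAG3, ZAP70 and TCF7). Over all 4108 such regions it lacked 42.8%.

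Between the H3K27ac-high and H3K27ac-low groups the number of members with a site differed by no more than the spread between replicates. A site of either kind was found for 18.5 ± 0.707 members in the high libraries, 19.0 ± 0.0 in the low libraries and 18.5 ± 0.707 in the live control (mean ± SD, n = 2 libraries). An end site was found for 5.5 ± 0.707, 6.0 ± 1.41 and 5.5 ± 0.707. No member had more sites in both high than in both low libraries (0 of 35, against 2.41% of all genes). CD5 alone had fewer (1 of 35, or 2.86%, against 5.26%), at 0 and 0 sites against 1 and 1, and both shares were at or below those of all genes. With 2 libraries against 2 an exact two-sided permutation test cannot go below p = 0.333, so neither CD5 nor any other member could pass a threshold. The CD5 difference was 0 of 35 when sites at the ends of other genes were left out, and when the gene body alone was read. Further settings called another member and not CD5: CD3E with the best 12813 regions, LEF1 with 25 kb either side and LAG3 in the full lists. The CD5 difference rested on high replicate 2 holding the VPS37C region at rank 27851.

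The sorted libraries and the live control did not separate at any member either. No member had more sites in all 4 sorted than in both live libraries (0 of 35, against 1.68% of all genes) or fewer (0 of 35, against 2.41%). An exact test of 4 against 2 libraries cannot go below p = 0.133. Of the 49 sites, 1 was in both low and neither high library (2.04%, against 3.3% of all regions), the VPS37C region by CD5. None was in both high and neither low (2.37% of all regions), in all 4 sorted and neither live (1.42%) or in both live and no sorted library (2.18%).

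The full lists, which differ in length, show how far the weaker sites reach. There the members' windows held 83, 92, 26, 56, 52 and 70 sites, following the lengths of the lists. In the live libraries 32 and 29 of 35 members had at least 1 site, against 84.7% and 84.6% of all genes. KLRB1 was the 1 member with none in any library (2.86%, against 12.4% of all genes). An end site in all 6 libraries was found for 4 members (11.4%), with CD2 added, against 43.5% of genes. In at least 1 library one was found for 18 (51.4%), against 64.3%. Of the 39 listed starts, the same 2, those of EOMES and GATA3, were open in all 6 full lists, against 43.1% of all starts. Another site was shared by all 6 in 13 members (37.1%, against 39.3%), with CTLA4 and THEMIS added, and a site of either kind in 16 (45.7%, against 63.4%). No member had more sites in both high than in both low libraries (0.716% of all genes), and LAG3 alone had fewer (2.86%, against 8.28%). None had more in the sorted than in the live libraries (0.0851% of all genes). Among the 5 members with fewer sites in every sorted than in every live library were CD4, CD6 and CD7, beside KLRD1 and LEF1. Of all genes 24.7% were called in this way in the full lists, and list length moves with the groups, so its part in these 5 was not tested.

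A further list of 46 T and NK cell genes, also chosen with results of these data known, was read the same way. Of these, 8 (17.4%) had an end site in all 6 libraries: RUNX3, HAVCR2, IKZF2, RASGRP1, FYN, ZBTB7B, ID2 and SLAMF7. Several of them, such as the transcription factor RUNX3 and the kinase FYN, are not restricted to T cells. Another site was shared by all 6 libraries in 25 (54.3%), among them KLRK1 (NKG2D), an activating receptor of NK cells with no end site in any library. No site among the best regions was found for 9 (19.6%), among them CD40LG and KLRC1, which had none in the full lists either. Between the sorted groups, 4 (8.7%, against 2.41% of all genes) had more sites in both high libraries, among them CD96 and HAVCR2. CCR7 and VAV1 had fewer (4.35%, against 5.26%). In the full lists 0 had more (against 0.716% of all genes) and 7 (15.2%, against 8.28%) had fewer. Those lists held 25627 and 46552 regions in the high libraries and 41828 and 51754 in the low. The part of list length was not tested. As with the 35 members, the share with an end site in all libraries lay below that of all genes (40.2%). The share with another site lay above it (32.6%). For these 46 genes neither gene length nor sites at the ends of neighbouring genes were taken into account.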

How the data were processed

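Peak summits of 6 GM12878 InTAC-seq libraries were read as the authors deposited them, 1 list per library, called separately and not on pooled replicates. Groups and replicate numbers came from the sample titles. Per the submitters' processing notes, bcl2fastq, FastQC, Bowtie2, Picard and MACS2 were used, with the builds hg38 and hg19 named. The lists are on hg38. Versions and settings, the Tn5 shift and duplicate removal included: not given in the sources used here. The staining protocol in the labels names the antibody target as H3K37ac, read here as H3K27ac. The deposited score was read as the −log10 of the authors' p-value or q-value and used only to rank summits within a list. No read counts were used, so depth and its precision are unknown.

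Chromosomes 1 to 22 and X were used, and summits of any library under 250 bp apart were chained into 100513 regions. Each library's regions were ranked by best score, with ties ordered at random from a fixed seed, and the top 25627 kept. Gene ends, without strand, were those of RefSeq's genes on GRCh38.p14, and listed starts and promoter bases those of RefSeq's promoters on the same assembly, which held 24 of the 35 members. Coordinates are 1-based. The members and all gene lists were chosen with earlier results of these data known, so counts are set beside the same count over all genes and no list is tested. All 35 members are accounted for; those with a site in all 6 libraries are described singly, giving the site in most libraries, then the best worst rank. Promoters were printed for members open at a listed start in all 6 libraries and for 3 with no site in any; BCL11B and PDCD1, open at the start in some libraries, were added after their values were seen. Of those with no site, LAT was passed over because its start lies by another gene's end, and GZMB was printed in its place. Scripts were tested on simulated lists. Values were computed with Python 3.11.15, pandas 2.3.3, NumPy 2.4.6 and matplotlib 3.10.9. Other settings tried were the list length, the joining distance, the width of gene ends and flanks, leaving out sites at other genes' ends, counting listed starts as ends, a block for the replicate number, and leaving out each library in turn.

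Whether replicate numbers pair libraries was checked by correlating deviations of ranks from the group means over 14593 regions. The correlations were 0.07, 0.01 and 0.0 for the 3 pairs of groups, so the numbers were not used to pair libraries. Only ranks were read, so pairing in the position or presence of summits was not checked.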

Additional observations from a re-analysis of the deposited data

How the results depend on the processing

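With summits joined up to 100, 500 or 1000 bp, every count kept its value and its genes, and with a 2500 bp gene-end window none moved by over 1.5 times. The count of members open at an end in all 6 libraries was 1 with the best 12813 regions per library (EOMES) and 1 with a 500 bp gene-end window (CD8A). Members with another site in all 6 numbered 6 with the best 12813, 3 with the gene body alone, 7 with 5 kb and 19 with 25 kb either side. Members with no site numbered 1 in the full lists, 18 with the best 12813, 16 with the gene body alone and 5 with 25 kb. The best 12813 gave 1 member with more sites in the high than the low libraries (THEMIS) and 1 with fewer (CD3E). Fewer sites were found in 1 member with 25 kb (LEF1) and in 1 in the full lists (LAG3), so CD5 was not called in these 3 settings. The gene body alone, and leaving out sites at other genes' ends, gave 0 with fewer. Members with fewer sites in the sorted than the live libraries numbered 5 in the full lists and 1 with 25 kb (CD6).

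With 1 library left out at a time, the members open at an end numbered 3 to 4, those with another site 11 to 12 and those with no site 9 to 12. More sites in high than low were found in 0 to 5 members and fewer in 1 to 5, both highest without H3K27ac high replicate 2. Without high replicate 1 the first count was 2 (NKG7 and PRF1), without low replicate 1 the counts were 1 and 4, and without low replicate 2 they were 0 and 3. More sites in sorted than live were found in 0 to 2, highest without live control replicate 1 (CTLA4 and LCK) and 1 without live control replicate 2 (THEMIS), and fewer in 0 to 2, highest without low replicate 2 (BCL11B and TCF7) and 1 without live control replicate 2 (CD6). A single library thus decides which members appear to separate the groups.

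With the replicate number as a block, 1 member had more sites in high than low (THEMIS) and 2 had fewer (CD5 and TCF7), and none separated sorted from live. The rank correlations gave no ground for pairing the libraries by number, although the region at the EOMES start followed it. This is a description. Depth is unknown and lists differ in length, so absence from a list is not absence of open chromatin.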
